A study of Mus musculus with 6 samples.

Results

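Ribosomes are built in the nucleolus, where RNA polymerase I transcribes the precursor of ribosomal RNA and a large set of nucleolar proteins and small nucleolar RNA-protein particles (snoRNPs) modify, cut and fold it into the small and large subunits. The transcription factor Myc drives many of the genes for these proteins, and dividing cells usually run this programme at a high rate. The genes examined here are Myc, its relative Mycn and 36 nucleolar genes, listed by name. All 38 had a probe matched by its transcript accession, out of 24609 probes or genes tested (called entries below), of which 14417 carry a gene symbol. All 38 were well above background on all 6 arrays, so none was lost to the filter on dim probes.

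The arrays were hybridised with total RNA of primary mammary epithelial cells, dissociated from the glands of female mice aged 8 weeks on a mixed 129sv/C57Bl6 background. A total of 3 samples were wild type for Plk2, which encodes a polo-like serine/threonine kinase, and 3 were Plk2 -/-, called null below. The design asks which transcripts differ when Plk2 is missing. The labels state no other allele and no treatment, and do not say whether a sample is 1 mouse or a pool, so the p-values measure only the spread between these samples. Plk2 had signals of 1160 to 1472 in wild type and of 1.87 to 2.44 in null samples, where it was not well above background. Which exons the null allele lacks was not stated in the labels.

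Levels are log2 of the processed spot signal minus the 75th percentile of the array, so a level of 0 lies at that percentile. Differences are null minus wild type on this log2 scale, and a difference of 1 is a 2-fold change. Each is given with a 95% interval that is not adjusted for the number of genes. The epithelial markers Epcam, Cdh1, Krt8, Krt18, Krt19, Krt5 and Krt14 were well above background on all arrays. Markers of lymphocytes were too in wild type, but only 8 of these 12 were on all null arrays. The summed level of the 12, relative to the 75th percentile, was 25.8 to 44.3 in wild type and 6.04 to 12.7 in null samples. In such mixed samples, fewer cells of a type and less RNA per cell cannot be told apart. All arrays lay on 1 slide, with wild type in row 1 and null in row 2, and an effect of the row cannot be told apart from that of the genotype. Samples 1, 2 and 3 of each genotype lay in columns 1, 2 and 3. The block for replicate number used below is therefore also a block for the slide column.

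None of the 38 genes differed between null and wild-type cells at an adjusted p under 0.05 (limma, Benjamini-Hochberg over all entries), where 0.565% of all entries passed. None passed at an adjusted p under 0.1 either, against 6.66% of all entries. At an unadjusted p under 0.05, 5 were higher in null cells and 2 lower. The shares of all entries were 13.5% higher and 9.54% lower, so these counts lay near the background (5 genes are 13.2% of 38 and 2 are 5.26%). Null and wild-type values were fully separate for 10 genes (26.3%, against 31.6% of all entries), 6 of them higher and 4 lower in null cells, where 19.6% and 12% of all entries were. The median difference of the 38 genes was 0.02 and that of all entries 0.03.

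The differences were small as well as uncalled. By the brightest probe of each gene they ran from -0.49 for Utp15 to 0.62 for Nhp2. Of these, 21 genes lay above 0 and 17 below (55.3% above 0, against 52.9% of all entries). A difference under 0.5 in size was found for 37 of 38 genes (97.4%) and for 73.7% of all entries. These shares are not like for like. All 38 genes were well above background on all arrays, which was not required of all entries. The median SE was 0.17 for the 38 genes and 0.20 for all entries, and its part in the gap was not tested. The 95% interval lay between -1 and 1, a 2-fold change either way, for 37 genes. The exception was Nhp2, whose interval reached 1.05. A dimmer second probe of Nolc1 gave -0.57 (interval -1.12 to -0.02), outside both ranges. In the same samples 17 of 20 listed mitosis genes were measured and all lay above 0, at a median of 2.08. The interval of no Myc or nucleolar gene reached that value. A probe could pass the dim-probe filter through the null arrays alone. Without that filter 19 of the 20 mitosis genes lay above 0, at a median of 2.03. The mitosis genes of smallest p were Bub1 (2.56, SE 0.47), Nusap1 (2.39, SE 0.47) and Melk (2.55, SE 0.51), with limma adjusted p-values of 0.0646 to 0.0723. Genes of DNA replication had a median of 1.16, and 16 of 16 were above 0. One of them passed the threshold: Mcm3, part of the helicase that opens DNA for replication, rose by 1.55 (SE 0.18; limma adjusted p = 0.0288), ahead of Gins2 (1.29, SE 0.23) and Tk1 (2.21, SE 0.45), which missed the threshold. The Mcm3 call was lost without the dim-probe filter (adjusted p = 0.0834), with the replicate block (0.0975) and without any 1 array other than null sample 3 (0.0698 to 0.116).

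**Figure D1:**
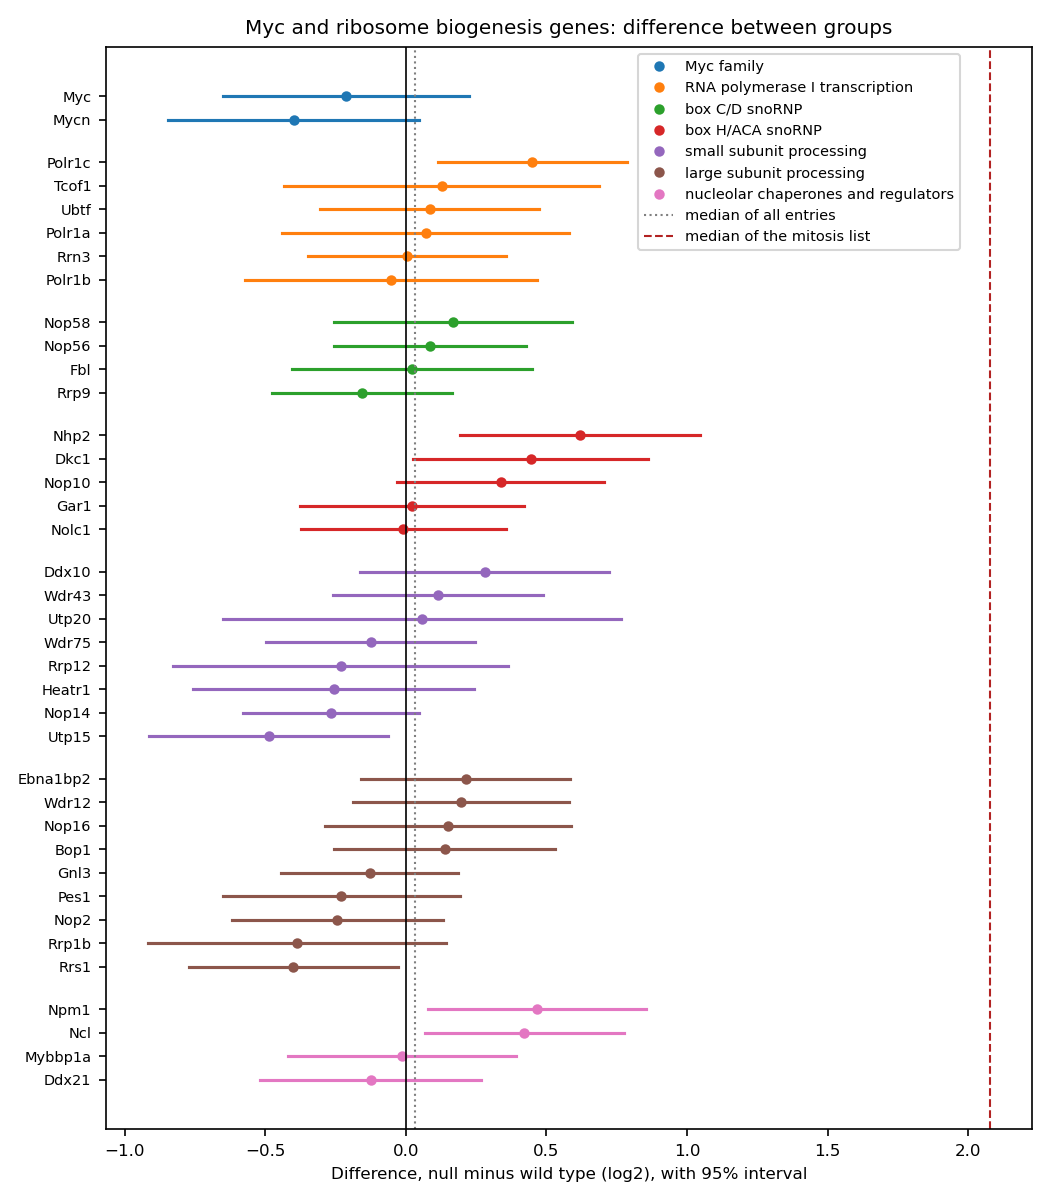
Difference between null and wild-type cells for each of the 38 genes (horizontal axis, log2, null minus wild type), grouped by role; points are the fitted differences, bars their 95% intervals from limma with 3 arrays per group. The dotted line marks the median of all entries (0.03) and the dashed line the median of the mitosis list (2.08), which no interval reaches; 37 of 38 intervals lie between -1 and 1.

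Myc and Mycn encode transcription factors that pair with Max and bind E-box sequences. The Myc level was 3.94, 4.15 and 4.30 in wild-type samples 1, 2 and 3 and 4.16, 3.68 and 3.91 in null samples 1, 2 and 3. The groups overlapped, null sample 1 lying between wild-type samples 2 and 3. The difference was -0.21 (95% interval -0.65 to 0.23; limma adjusted p = 0.52), from means of 4.13 ± 0.18 and 3.92 ± 0.24 (SD, n = 3 each). A Myc level lower by more than 0.65 in null cells, or higher by more than 0.23, lay outside that interval. Mycn was dim, with signals of 54.9 to 68.8 in wild type and 36.7 to 65.6 in null samples. Its level was -2.23, -1.85 and -2.05 in wild type and -2.22, -2.40 and -2.71 in null samples, of which null sample 1 overlapped the wild-type range. The Mycn difference was -0.40 (interval -0.85 to 0.05; adjusted p = 0.258), but -0.19 with normexp background correction and -0.16 with the deposited table. With arrays scaled on spike-in controls the Myc difference was 0.08.

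The wider Myc network holds Max, the Mxd and Mnt repressors that compete with Myc for Max, and the Mlx branch. Of 14 listed genes 11 were measured, with a median of 0.05, 6 above 0 and 5 below, and none passed the adjusted threshold (limma; 3 higher and 1 lower at an unadjusted p under 0.05, where 13.5% and 9.54% of all entries were). Max differed by 0.05, with overlapping groups at 3.70, 3.69 and 3.78 in wild type and 3.89, 3.77 and 3.65 in null samples. The smallest p in the network belonged to Mxd3, a Max-binding repressor found mainly in dividing cells. Mxd3 stood at -3.89, -4.59 and -4.31 in wild type, where it was well above background in 2 of 3 samples, and at -2.17, -0.38 and -1.67 in null samples. All null samples lay above all wild-type samples, and null sample 2, which also had the highest mitosis median, was the highest. The Mxd3 difference of 2.86 (interval 1.76 to 3.95) just missed the threshold (adjusted p = 0.0537). The related repressor gene Mxd4 differed by 0.56 (SE 0.15; adjusted p = 0.103) and Mlxipl, which encodes the glucose-responsive factor ChREBP, by 0.66 (SE 0.27; adjusted p = 0.21).

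Promoter sequences were searched for an E-box and an Ets core. RefSeq promoters on GRCm38.p6, from 250 bases before to 50 after an annotated start, were used for 31 of the 38 genes (39 promoters). Myc, Fbl, Npm1, Bop1, Rrp12, Rrs1 and Tcof1 were not among them. The search of these genes left out a chromosome that the set of all promoters kept. The canonical E-box CACGTG, which reads the same on both strands, was in 6 of these 39 promoters (15.4%) and in 7.15% of all 32851 promoters. The 6 genes were Nop2, Utp20, Pes1, Mybbp1a, Rrn3 and Wdr43. Their median difference was -0.0045 with 3 above 0, and that of the 25 genes without the E-box 0.07 with 14 above 0. CCGGAAG, a core recognised by Ets factors, searched on both strands, was in 9 member promoters (23.1%) and in 8.86% of all promoters, and does not overlap the E-box in sequence. The 9 genes with it had a median difference of 0.02, and the 22 without it 0.02. Member promoters were also richer in G and C, at a median of 57.3% against 52.7% of all promoters, and the part of this in the motif shares was not tested. These matches are descriptions of the window and not binding sites.

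The 250 bases before the start are printed for Nop2 and Rrn3, since in the other 4 genes the E-box lay after the start, with differences of -0.24 and 0.01, and for Nhp2 and Polr1c, the pair with the smallest p among the 38 genes. Capitals mark CACGTG and CCGGAAG.
Nop2, chr6:125131633-125131882, plus strand, E-box 60 bases and CCGGAAG 38 bases before the start: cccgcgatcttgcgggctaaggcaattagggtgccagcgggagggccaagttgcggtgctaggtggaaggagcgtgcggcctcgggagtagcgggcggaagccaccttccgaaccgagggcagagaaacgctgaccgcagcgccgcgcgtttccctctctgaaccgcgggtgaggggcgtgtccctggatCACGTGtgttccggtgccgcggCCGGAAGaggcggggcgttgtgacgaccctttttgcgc
Rrn3, chr16:13780449-13780698, plus strand, E-boxes 215 and 48 bases before the start: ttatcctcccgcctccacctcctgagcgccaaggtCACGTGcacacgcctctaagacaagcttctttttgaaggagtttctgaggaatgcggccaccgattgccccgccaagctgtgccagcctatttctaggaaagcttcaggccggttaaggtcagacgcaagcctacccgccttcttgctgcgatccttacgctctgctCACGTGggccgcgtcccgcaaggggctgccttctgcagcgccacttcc
Nhp2, chr11:51619523-51619772, plus strand, CCGGAAG 23 bases before the start: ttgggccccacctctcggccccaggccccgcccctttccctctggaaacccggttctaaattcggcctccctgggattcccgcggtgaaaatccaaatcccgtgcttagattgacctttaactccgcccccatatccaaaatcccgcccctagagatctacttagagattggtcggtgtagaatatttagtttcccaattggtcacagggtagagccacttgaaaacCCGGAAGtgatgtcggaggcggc
Polr1c, chr17:46248046-46248295, minus strand, CCGGAAG 42 bases before the start: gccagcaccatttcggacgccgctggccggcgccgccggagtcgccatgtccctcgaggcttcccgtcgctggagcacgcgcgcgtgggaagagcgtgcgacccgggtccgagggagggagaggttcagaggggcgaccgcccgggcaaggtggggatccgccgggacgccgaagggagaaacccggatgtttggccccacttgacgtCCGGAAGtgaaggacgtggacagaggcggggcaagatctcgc

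Genes of RNA polymerase I transcription had a median difference of 0.08, 5 of 6 above 0. Polr1c, a subunit shared by RNA polymerases I and III, stood apart from the rest. Its level was 3.56, 3.57 and 3.68 in wild type and 3.92, 4.06 and 4.18 in null samples. All null samples lay above all wild-type samples, by a difference of 0.45 (interval 0.11 to 0.79; 1.37-fold; limma adjusted p = 0.137). Polr1c has 10 spots on the array. These are repeats of the same probe on the same arrays and not separate results. In the authors' deposited table its 10 rows all had null above wild type. Of these, 2 passed the authors' thresholds on p and fold, the only such rows among 61 for these genes. The other probes have fewer rows each, so Polr1c had more rows that could pass. The gene of treacle, Tcof1, which links polymerase I to early processing, differed by 0.13 (interval -0.43 to 0.69; adjusted p = 0.77). Its levels of 3.05, 3.56 and 2.74 in null samples spanned those of wild type, at 2.88, 2.92 and 3.18. Ubtf, which encodes the architectural factor of ribosomal DNA, had 6.30, 6.31 and 6.28 in wild type against 6.23, 6.26 and 6.65 in null samples, a difference of 0.08. Null sample 3 alone lay above wild type, and without it the difference was -0.051. A dimmer probe of Ubtf gave 0.04. The catalytic subunit genes Polr1a (0.07) and Polr1b (-0.05), and Rrn3, whose product brings the polymerase to the promoter (0.01), lay near 0.

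Of the polymerase I subunits outside the list of 38, 5 of 5 had positive differences (52.9% of all entries did), with a median of 0.35. Null values lay fully above wild type for 4 of them (19.6% of all entries). Among these were Polr1e (0.50), Polr1d (0.35), also shared with polymerase III, and Znrd1 (0.35), while Cd3eap differed by 0.02. These subunits were named after their values were seen. None passed the adjusted threshold.

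Box C/D snoRNPs carry out ribose methylation of ribosomal RNA and, as the U3 particle, its first cuts. Their genes had a median difference of 0.05, and none of the 4 had an unadjusted p under 0.05. Nop56, a core protein, had levels of 5.48, 5.40 and 5.64 in wild type and 5.49, 5.65 and 5.65 in null samples. Nop58, its partner, had 4.07, 4.17 and 4.51 against 4.35, 4.29 and 4.60. The groups overlapped for both, with differences of 0.09 (interval -0.25 to 0.43) and 0.17 (interval -0.26 to 0.59). A second probe of Nop56 gave 0.04. Fbl, the methyltransferase fibrillarin, differed by 0.02. Rrp9, a U3-specific protein, had 2.04, 2.08 and 2.23 in wild type and 1.92, 2.01 and 1.94 in null samples. Its groups did not overlap, but the gap was narrow and the difference of -0.16 (interval -0.48 to 0.16; limma adjusted p = 0.516) became 0.13 with spike-in scaling.

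**Figure D2:**
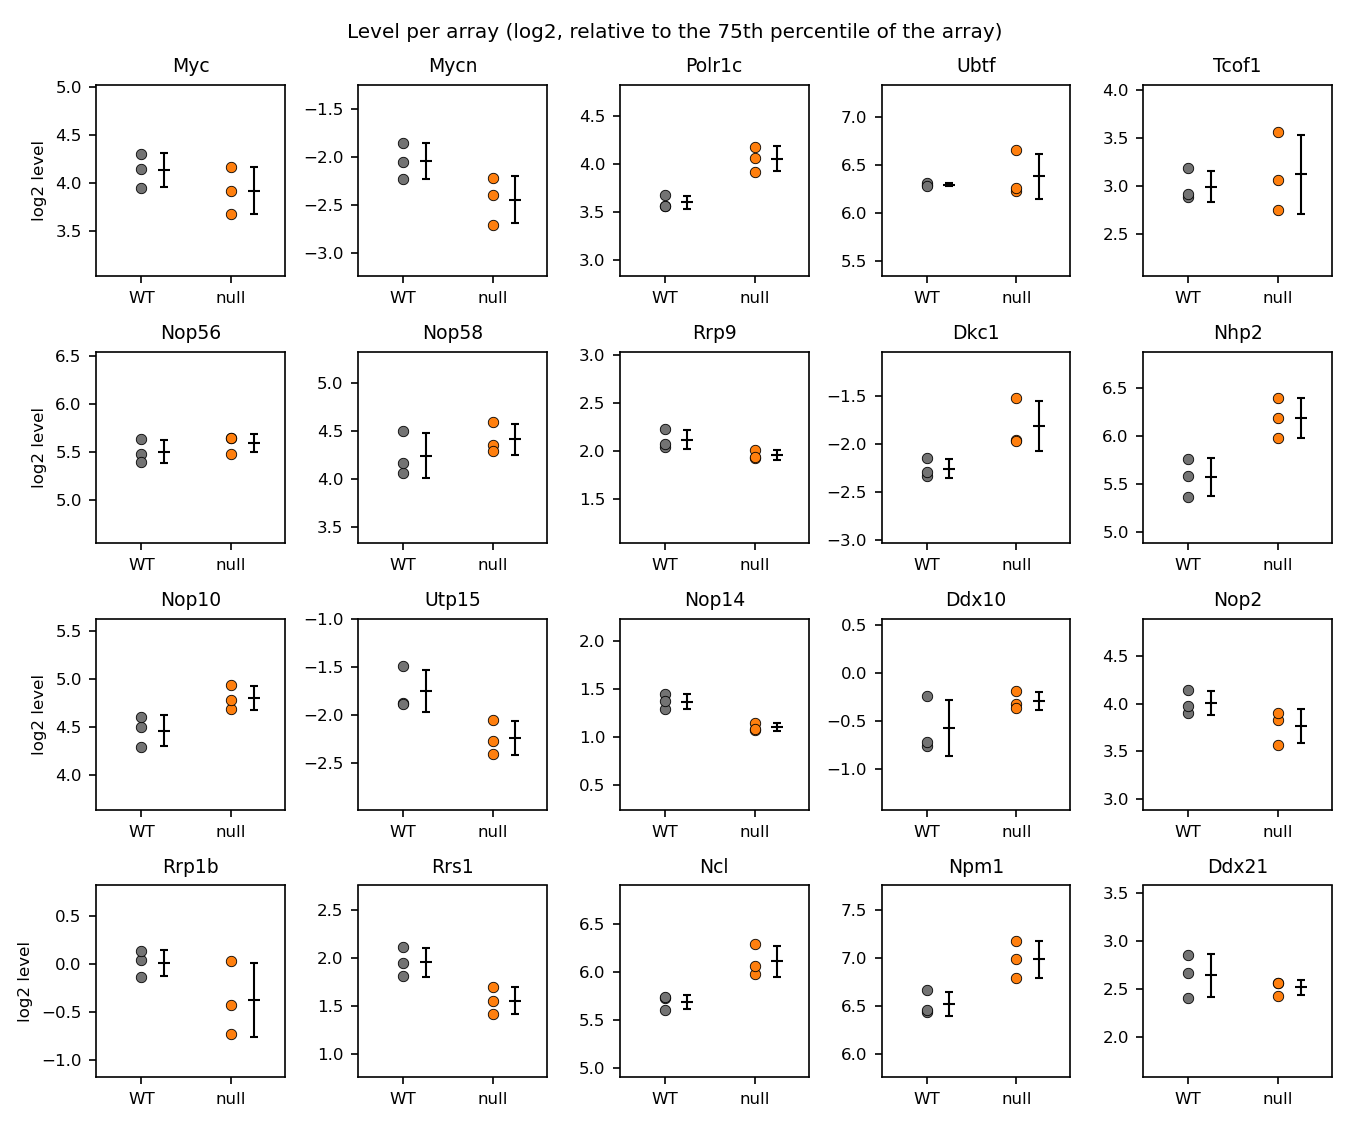
Level of 20 of the 38 genes in each array (vertical axis, log2 relative to the 75th percentile of the array; each panel spans 2 log2 units); grey points are wild-type and orange points null samples, and bars beside them give mean and SD (n = 3). Null points lie above all wild-type points for Polr1c, Dkc1, Nhp2, Nop10, Ncl and Npm1, and below all for Rrp9, Utp15, Nop14 and Rrs1.

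Box H/ACA snoRNPs carry out pseudouridylation, and the same core proteins hold telomerase RNA. This group had the highest median of the roles, 0.34, with 4 of 5 genes above 0, and 3 whose null values lay fully above wild type (background 19.6% of all entries). With normexp background correction its median was 0.20, below the 0.22 of the nucleolar chaperones. Nhp2, a core RNA-binding subunit, had 5.58, 5.36 and 5.76 in wild type and 5.98, 6.39 and 6.19 in null samples. It had the largest difference of the 38 genes, 0.62 (SE 0.18; interval 0.19 to 1.05; 1.54-fold; limma adjusted p = 0.12). Dkc1, the pseudouridine synthase dyskerin, was dim, at -2.15, -2.34 and -2.29 in wild type and -1.96, -1.52 and -1.97 in null samples. Its difference was 0.44 (interval 0.03 to 0.86; adjusted p = 0.198), and 0.20 with normexp background correction. Nop10, the smallest core subunit, had 4.49, 4.28 and 4.60 in wild type and 4.69, 4.78 and 4.93 in null samples, a difference of 0.34 (interval -0.03 to 0.71; adjusted p = 0.248). Gar1, the fourth core subunit, differed by 0.02 (interval -0.38 to 0.42), and its difference from the other subunits was not tested. Nolc1, a chaperone of snoRNPs, differed by -0.0095 by the probe used and by -0.57 (interval -1.12 to -0.02) by a dimmer second probe. The assembly factor genes outside the list were also unlike each other, Shq1 at 0.21 (SE 0.13) and Naf1 at -0.12 (SE 0.15), both named after their values were seen.

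Genes of small subunit processing, most of them parts of the large particle that assembles on the nascent precursor, had a median of -0.18 with 5 of 8 below 0. Utp15 had the lowest difference of all 38 genes in the fit reported. It was dim, with signals of 67.0 to 99.9 in wild type and 49.8 to 68.2 in null samples. Its level was -1.87, -1.89 and -1.499 in wild type and -2.41, -2.05 and -2.27 in null samples, with no overlap. The difference was -0.49 (interval -0.91 to -0.06; limma adjusted p = 0.175), but -0.34 with normexp background correction and -0.31 with the deposited table. The authors' signed fold was -1.24 for Utp15 and lower, at -1.36, for Rrs1. Nop14 had 1.44, 1.29 and 1.37 in wild type and 1.07, 1.15 and 1.08 in null samples, a tight and non-overlapping pair of groups (difference -0.27, interval -0.58 to 0.05; adjusted p = 0.276). The helicase gene Ddx10 went the other way, at -0.76, -0.72 and -0.23 against -0.18, -0.32 and -0.36. There wild-type sample 3 lay within the null range, and the difference was 0.28 (interval -0.16 to 0.72). The remaining members ran from -0.26 for Heatr1 to 0.12 for Wdr43, all with overlapping groups. With spike-in scaling the median of this group was 0.11, and its Nop14 difference 0.02.

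Genes of large subunit processing had a median of -0.13 with 5 of 9 below 0. Rrs1, which helps to bring the 5S RNA particle into the large subunit, had 1.80, 1.94 and 2.11 in wild type and 1.70, 1.54 and 1.41 in null samples. The groups did not overlap, and the difference was -0.40 (interval -0.77 to -0.03; limma adjusted p = 0.193). Rrp1b had -0.14, 0.04 and 0.13 in wild type and -0.43, 0.03 and -0.73 in null samples, so that null sample 2 lay within the wild-type range (difference -0.39, interval -0.92 to 0.14). Nop2, a ribosomal RNA cytosine methyltransferase known as a marker of proliferation, had 3.90, 3.98 and 4.14 against 3.82, 3.90 and 3.57. Its difference was -0.24 (interval -0.62 to 0.13; adjusted p = 0.393) and, with spike-in scaling, 0.05. The 3 genes of the PeBoW complex, which processes the large subunit RNA, differed by 0.14 (Bop1), -0.23 (Pes1) and 0.20 (Wdr12), all with overlapping groups. The other probe of Pes1 gave 0.35, so its direction is not settled. Nop16 (0.15), Ebna1bp2 (0.21) and the nucleostemin gene Gnl3 (-0.13) also overlapped, and the other probes of Ebna1bp2 gave 0.01 and 0.32. With the mean of all probes of each gene the median of the group was 0.06.

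The abundant nucleolar chaperones Npm1 and Ncl were both higher in all null samples than in all wild-type samples. Npm1, which encodes nucleophosmin, had 6.44, 6.46 and 6.67 in wild type and 6.80, 7.18 and 6.999 in null samples. The difference was 0.47 (interval 0.08 to 0.85; 1.38-fold; limma adjusted p = 0.16), and its other 3 probes gave 0.54, 0.48 and 0.47. Ncl, which encodes nucleolin, had 5.73, 5.60 and 5.73 in wild type and 5.98, 6.29 and 6.06 in null samples, a difference of 0.42 (interval 0.07 to 0.77; adjusted p = 0.163). A much dimmer second probe of Ncl gave 0.07 (SE 0.36). The helicase gene Ddx21 had 2.66, 2.40 and 2.85 in wild type and 2.56, 2.56 and 2.42 in null samples, all null values within the wild-type range. Its difference was -0.12 by this probe and -0.32 by the other. Mybbp1a, a nucleolar repressor, differed by -0.01.

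The 38 genes also varied between samples of 1 genotype. Measured against the wild-type mean of each gene, their median was -0.03, 0.22 and -0.14 in null samples 1, 2 and 3, and 15, 26 and 15 genes lay above that mean. In wild-type samples 1, 2 and 3 the medians were -0.08, -0.07 and 0.14, with 11, 8 and 34 genes above the mean. The 3 null medians thus span a wider range than the wild-type ones and lie on both sides of 0. Mitosis medians in null samples 1, 2 and 3 were 1.52, 3.20 and 1.62, so null sample 2 was the highest in both lists. Lymphocyte markers had medians of -3.03, -3.14 and -1.35 in the same samples, 12 of 12 below wild type in each. Their part in the nucleolar differences was not tested. Without null sample 2 the median of the 38 genes was -0.09, with 15 above 0, and without null sample 3 it was 0.07, with 23 above 0.

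**Figure D3:**
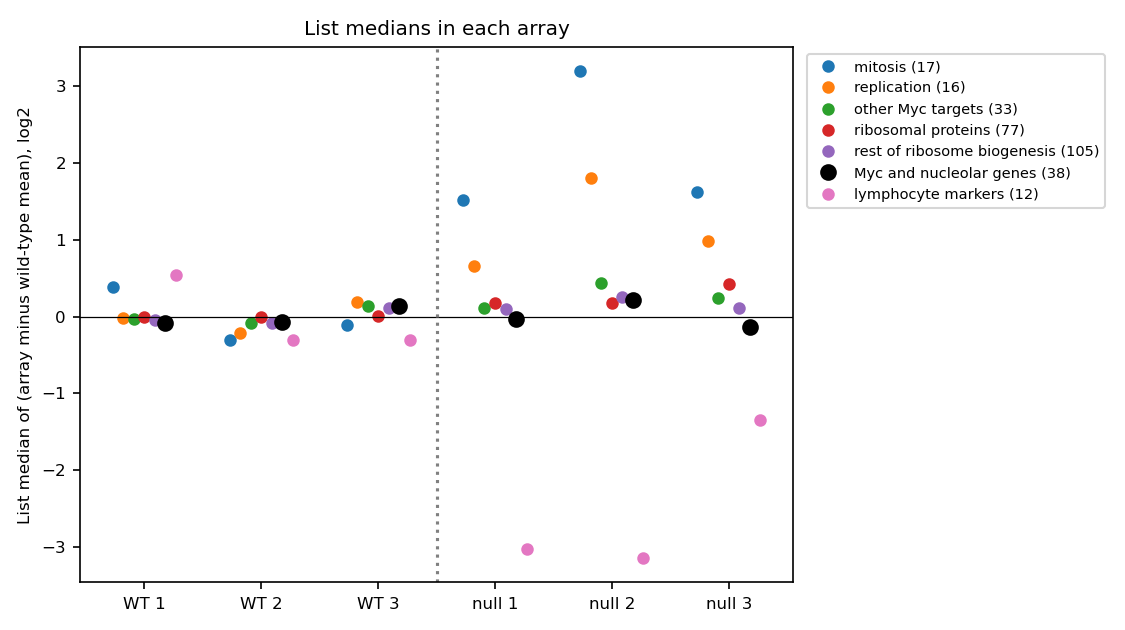
Median over the genes of each list of the array's level minus the wild-type mean (vertical axis, log2), for the 3 wild-type and 3 null arrays; numbers in the legend are genes measured. The 38 Myc and nucleolar genes (black) stay between -0.14 and 0.22 in every array, while mitosis genes reach 1.52 to 3.20 and lymphocyte markers -3.14 to -1.35 in null arrays.

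Other genes of the same pathway were compared from lists that the 38 genes are not part of. Of 107 further ribosome biogenesis genes 105 were measured, with a median difference of 0.18 and 86 above 0 (81.9%, against 52.9% of all entries). None passed the adjusted threshold (limma), and 11 were higher and 1, Pwp2, lower at an unadjusted p under 0.05. That is 10.5% and 0.95% of 105, against 13.5% and 9.54% of all entries. The count of 11 was 2, 2 and 6 without wild-type samples 1, 2 and 3, 5 without null sample 2 or 3, and 3 with the replicate block. The smallest p-values belonged to Exosc8 (0.87, SE 0.21; adjusted p = 0.0952) and Exosc7 (0.70, SE 0.19), subunits of the RNA exosome that trims ribosomal RNA, and to Taf1d (0.44, SE 0.15), a subunit of the polymerase I selectivity factor. All 9 measured exosome subunits had differences above 0, from 0.0043 for Exosc10 upward, a group singled out after its values were seen. In null samples 1, 2 and 3 the median of the 105 genes was 0.10, 0.25 and 0.11.

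Differences of ribosomal protein genes were small and nearly all on 1 side of 0. Of 77 measured, 76 had a difference above 0 (52.9% of all entries did), with a median of 0.26. Null values lay fully above wild-type values for 56 (background 19.6% of all entries). None passed the adjusted threshold (limma), and 15 were higher at an unadjusted p under 0.05, where 13.5% of all entries were. That count was 0, 2 and 5 without wild-type samples 1, 2 and 3, and 9 and 5 without null samples 2 and 3. It was 0 with the replicate block, 1 with quantile normalization and 35 with normexp background correction. With trend and robust moderation it was 39 of 76 genes, and with spike-in scaling 58 of 77. The share of all entries at that p is not given for these settings. Rpl21 differed by 0.42 (SE 0.13), Rpl10a by 0.39 (SE 0.13) and Rps18 by 0.43 (SE 0.14), with adjusted p-values of 0.14 to 0.149. Rpl10, at -0.14, was the exception. These genes have many near-identical processed copies, so probe values are uncertain for that reason. The size depended on the scaling, with a median of 0.07 and 58 of 77 above 0 under quantile normalization. In null samples 1, 2 and 3 the median was 0.18, 0.18 and 0.43, so here null sample 3 was the highest.

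Textbook Myc targets outside the nucleolus had a median of 0.31, with 25 of 33 above 0 (75.8%, against 52.9% of all entries). None passed the adjusted threshold (limma), and 6 were higher and 2 lower at an unadjusted p under 0.05, where 13.5% and 9.54% of all entries were. The count of higher genes was 3 without wild-type sample 2, and 11 with normexp background correction or array weights. The smallest p was that of Slc3a2, the heavy chain of amino acid transporters, with 6.81, 6.85 and 6.91 in wild type and 6.24, 6.30 and 6.28 in null samples. It differed by -0.58 (interval -0.88 to -0.28; adjusted p = 0.0835), with tight and separate groups. Paics, a purine synthesis enzyme gene, differed by 0.72 (SE 0.16; adjusted p = 0.0866) and the arginine methyltransferase gene Prmt1 by 0.79 (SE 0.18; adjusted p = 0.0876). The classic targets Odc1 and Srm of polyamine synthesis differed by 0.25 (SE 0.14) and -0.30 (SE 0.20), both named after their values were seen.

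Scaling on external controls shifted these medians. The spike-in controls added to each sample lay lower relative to the 75th percentile in null samples 1 and 2 than in the other arrays, at 3.86 and 4.12 against 4.36 to 4.50. Scaling on them moved the median of all entries to 0.32, that of the 38 genes to 0.31 and their number above 0 to 34. This scaling adds the same 0.29 to the difference of every entry, and 76.1% of all entries then lay above 0. At an unadjusted p under 0.05, 7 of the 38 genes were then higher and none lower, and the adjusted threshold was still passed by none (limma). Over all entries the adjusted threshold was then passed by 266 higher and 125 lower. The share of all entries at that unadjusted p is not given for this scaling, so these counts are not read as particular to these genes. Differences of Polr1c, Nhp2, Dkc1, Nop10, Npm1 and Ncl were above 0, and those of Mycn, Utp15, Rrs1 and Rrp1b below 0, under all 17 alternatives run. This agreement is in part built in. The changes of filter, the moderation and the replicate block left these differences unchanged. Leaving out an array cannot turn the sign where the groups do not overlap, as for all of these genes but Mycn and Rrp1b.

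**Figure D4:**
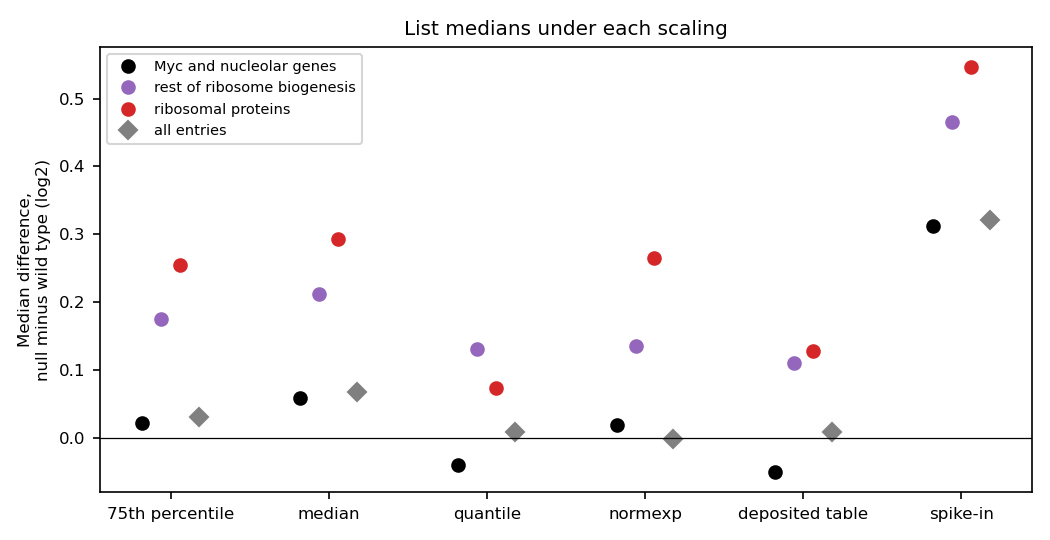
Median difference, null minus wild type (vertical axis, log2), under 6 ways of scaling or background correction (horizontal axis), for the 38 Myc and nucleolar genes (black), 105 further ribosome biogenesis genes (purple), 77 ribosomal protein genes (red) and all entries (grey diamonds). Black points and grey diamonds lie at 0.02 and 0.03 with 75th percentile centring and 0.31 and 0.32 with spike-in scaling.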

How the data were processed

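Per the file headers, Agilent arrays of design 028005 (build mm9) were read with Feature Extraction 11.0.1.1, protocol GE1_1100_Jul11. The intensity used is the deposited processed signal, corrected for background but not normalized between arrays. The authors' deposited table holds normalized intensities, an unadjusted p-value, a score that is a signed fold, and the ratio between genotypes; the sources used here do not say how these were made.

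Outlier spots (1119) were dropped, each array's log2 signal was centred on its 75th percentile, and spots of a probe were averaged. Accessions were matched to RefSeq (GRCm38.p6, used for names and promoters) for 26582 of 55681 probes. A probe was kept if 3 or more of the 6 arrays had it well above background, and the brightest stood for its gene. Tests used limma 3.58.1 (R 4.3.3, with lmFit and eBayes), on all 24609 entries with 40 missing values, none imputed. Only this fit was tried on simulated data, with noise drawn independently for each entry. Centring, the filter and the choice of probe were not simulated. The number of arrays limits precision.

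The members, lists and roles were chosen with earlier results of these data known. Named with all values are Myc, Mycn and the 3 genes of smallest p per role; in other lists, the 3 of smallest p. Markers of fibroblasts, endothelium, myeloid cells and adipocytes had median differences of -0.37, -0.24, -0.38 and 0.26, and epithelial markers 0.06. Alternatives were other background correction, scaling, source, filters, probe choice, moderation, weighting of arrays, a block for replicate numbers and each array left out; spike-in scaling (7 probes) was added after the data were seen.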

Additional observations from a re-analysis of the deposited data

How the results depend on the processing

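No Myc or nucleolar gene passed the adjusted threshold in any of the 17 alternatives, nor at an adjusted p under 0.1 in the fit reported; the lowest adjusted p over alternatives was 0.0522, for Nhp2 with normexp background correction (limma). The count over all entries moved more, from 139 to 1087 with normexp background correction, 346 with median centring, 770 with the deposited table, 380 with probes well above background on all arrays, 31 without a filter, 848 with trend and robust moderation, 1475 with array weights and 391 with spike-in scaling. Leaving out 1 array gave 7 to 704, the highest without null sample 3 and the lowest without null sample 1 or wild-type sample 2. The labels do not say whether the replicate numbers pair the samples. Deviations from the group means correlated at -0.12, 0.04 and -0.02 for same-numbered samples. Of 6 samples, 0 correlated best with their own number. Deviations from a mean of 3 samples are not independent, so these values cannot decide whether samples were paired. With the replicate number as a block 8 entries passed, and 2 nucleolar genes had an unadjusted p under 0.05 (limma), against 7. That count was 2 to 7 with 1 array left out, at 3, 2 and 4 without wild-type samples 1, 2 and 3. The median of the 38 genes was 0.31 with spike-in scaling and lay between -0.09 and 0.09 with 1 array left out.

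Of the 20 genes given by sample, 12 kept their sign throughout, in part because several of the alternatives cannot turn it. Spike-in scaling turned Myc to 0.078, Rrp9 to 0.13, Nop14 to 0.024, Nop2 to 0.047 and Ddx21 to 0.17, by moving all entries upward. Ubtf was -0.049 with quantile normalization, -0.0018 with array weights and -0.051 to 0.16 with 1 array left out. Nop56 was -0.022 with quantile normalization and -0.090 with the deposited table, and Tcof1 ran from -0.092 (without null sample 2) to 0.31 with 1 array left out. The causes of the last 3 were not tested.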
